A study of Rattus norvegicus with 60 samples.

Results

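CA3 is the hippocampal field whose pyramidal neurons receive the mossy fibres of the dentate gyrus (DG) and project to CA1. The comparison described here set the 4 CA3 arrays of 24-month-old rats labelled impaired against the 4 CA3 arrays of 12-month-old adult rats. These 8 arrays were chosen by region and age group from a series of 60. A probe entered the comparison when its signal stood above the negative controls at a detection p under 0.01 on 4 or more of the 8 arrays, which 9701 of 22523 probes did. All animals were F344BN F1 hybrid rats, a cross of the Fischer and Brown Norway strains with no transgene or treatment given in the labels. The question behind the series was how far ageing acts alike in the regions of the hippocampus. Total RNA was labelled with biotin and hybridised to Illumina bead arrays, and levels are given as log2 intensity after background correction and quantile normalisation. The 12 CA3 arrays, which also include 4 from 24-month-old rats labelled intact, lay on 1 slide.

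The labels used here did not say which test divided the aged rats into impaired and intact. They did not tie the arrays to separate animals, so p-values measure the spread between these samples, which may be technical. Impaired samples took slide sections A to D and adult samples sections I to L, so section position and group cannot be told apart. In tissue RNA, fewer cells of a type and less RNA per cell cannot be told apart.

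The ageing brain is known for a shift in its glia. Microglia, the resident phagocytes, take up and degrade debris and can load peptides onto class II molecules of the major histocompatibility complex (MHC), which display them to helper T cells. Complement proteins, made in the brain by microglia and astrocytes, tag synapses and debris for removal. Astrocytes respond to stress with more of the intermediate filament protein Gfap.

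The tissue label was checked against region markers over the impaired and adult arrays. Of 25 detected genes on a CA3 pyramidal cell list, 13 had their highest mean in CA3, 7 in CA1 and 5 in DG. Nectin3, an adhesion protein of mossy fibre synapses, averaged a log2 intensity of 7.98 in CA3, against 5.33 in CA1 and 6.44 in DG. Coch, on the same list, was highest in CA1, at 6.04 in CA3, 6.43 in CA1 and 5.52 in DG. Grik4, also on it, was not detected on any of the 8 CA3 arrays. Wfs1, a CA1 marker, averaged 6.28 in CA3 and 9.58 in CA1. C1ql2, a granule cell marker, averaged 6.20 in CA3 and 9.96 in DG. Between 42.54% and 43.66% of probes were detected on the impaired arrays, and between 41.64% and 44.52% on the adult arrays. Correlations across probes ran from 0.989 to 0.995 within the impaired group and from 0.985 to 0.995 within the adult group.

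1 adult array stood apart in marker sums, and both it and impaired replicate 1 stood apart on principal components. Adult replicate 1 had a summed intensity of 7226 over 27 dentate granule cell markers, against 4668 to 5037 on the other adult arrays and 4694 to 5306 on the impaired arrays. Its sum over 16 blood markers was 11065, above the 5614 to 6749 of the other adult arrays and the 6113 to 8668 of the impaired arrays. On the first principal component of the 8 arrays (34.3% of the variance) adult replicate 1 lay at -18.14 and impaired replicate 1 at -12.54. The other 6 lay between -2.72 and 10.36. On the second (22.3%) impaired replicate 1 lay at 16.15 and adult replicate 1 at -12.82, with the other 6 between -4.46 and 4.66. Of the 16 blood genes 14 were not detected on any of the 8 arrays, so that sum rests on the haemoglobin genes Hbb and Hba-a2.

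At an adjusted p under 0.05 (limma, Benjamini-Hochberg over 9701 probes), 17 probes were higher in impaired CA3, which is 0.175% of those tested. None was lower, which is 0.0%. The 17 genes were the MHC class II genes RT1-Ba, RT1-Db1, Cd74 and RT1-Da, the complement genes C3, Serping1 and C1qa, the astrocyte filament gene Gfap, and Bmp7, Gipr, S100a6, C1qtnf9, P3h2, Ncf1, Anxa3, Npc2 and Lgals1. Their differences, impaired minus adult, ran from 0.42 to 1.61 on the log2 scale. At an unadjusted p under 0.05 there were 417 probes higher and 363 lower, and the median over all 9701 probes was 0.002. All 17 were detected on every one of the 8 arrays except P3h2, which was detected on 4 of 4 impaired and 1 of 4 adult arrays. On all 17 the 4 impaired arrays lay above the 4 adult arrays, which was true of 3.01% of all tested probes. The 17 were chosen by their p on these same arrays, which favours such a separation. Of all tested probes 50.6% had a difference above 0. All impaired arrays lay below all adult arrays on 2.26% of probes.

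**Figure D1:**
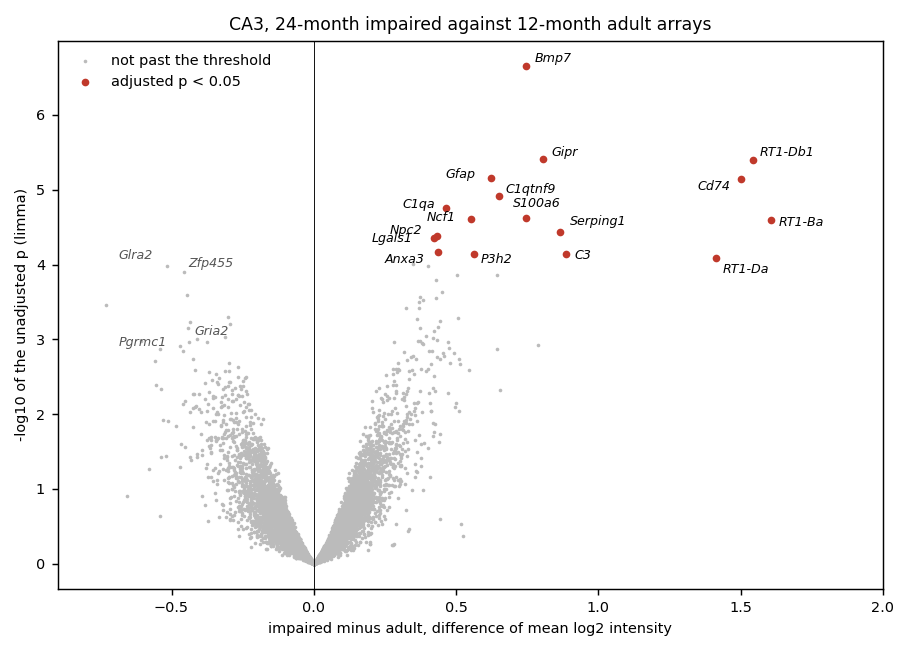
Each point is 1 of 9701 probes. The x axis gives the difference of mean log2 intensity, impaired minus adult, and the y axis the negative log10 of the unadjusted p from limma. The 17 probes past the adjusted threshold all lie on the right, with the class II genes farthest out at 1.41 to 1.61, and no probe on the left passes.

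MHC class II genes had the widest differences among the genes past the threshold. RT1-Ba and RT1-Da encode alpha chains and RT1-Db1 a beta chain of the molecule, and Cd74 encodes the invariant chain, which holds the peptide groove until a peptide is loaded. Of 14 class II genes listed, 10 had a probe, 6 were tested and 4 rose, against 0.175% of all tested probes. This list and those below were chosen with earlier results of these data known, which can favour such shares. The promoters of the 4 are shown because class II genes are known to share upstream elements, the X and Y boxes, which bind the RFX complex and NF-Y and recruit the class II transactivator Ciita. The sequences are the 120 bases before each RefSeq start (rat build GRCr8), at chr20:4576937-4577056 on the plus strand for RT1-Ba, chr20:4560163-4560282 on the minus strand for RT1-Db1, chr20:4515295-4515414 on the plus strand for RT1-Da and chr18:56527086-56527205 on the plus strand for Cd74. Capitals mark matches to the Y box letters CTGATTGG, the X box core TNGCAAC or the X2 box TGACGTCA, searched on both strands.
RT1-Ba: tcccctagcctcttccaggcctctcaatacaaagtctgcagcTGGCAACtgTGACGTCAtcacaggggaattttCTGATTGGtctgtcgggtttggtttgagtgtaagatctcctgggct
RT1-Db1: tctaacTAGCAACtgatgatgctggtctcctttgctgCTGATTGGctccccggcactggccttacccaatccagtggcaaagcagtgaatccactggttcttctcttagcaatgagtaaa
RT1-Da: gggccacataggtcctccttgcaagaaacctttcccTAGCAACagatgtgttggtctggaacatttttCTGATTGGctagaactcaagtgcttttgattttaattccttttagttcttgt
Cd74: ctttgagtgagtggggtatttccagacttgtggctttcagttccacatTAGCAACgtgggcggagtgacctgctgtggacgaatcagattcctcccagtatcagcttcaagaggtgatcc

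An X box core preceded a Y box by 25 bases in RT1-Ba and RT1-Da and by 24 bases in RT1-Db1. RT1-Ba also held the X2 letters, 2 bases after its X box core, and Cd74 held an X box core alone in this window. Over 33469 rat promoters of 300 bases, 10.4% held the X box core, 3.5% the Y box and 1.83% the X2 box. An X box core followed by a Y box at 10 to 40 bases on the same strand was found in 9 promoters, or 0.0269%, and 3 of these 9 are RT1-Ba, RT1-Db1 and RT1-Da. A match describes the letters only, and the motifs were chosen after the sequences were read.

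RT1-Ba had log2 intensities of 9.87, 9.69, 9.45 and 9.63 on the impaired arrays, against 7.13, 8.16, 8.23 and 8.70 on the adult arrays. RT1-Db1 had 8.55, 8.36, 7.92 and 8.27 on the impaired arrays, against 6.17, 6.68, 6.84 and 7.22 on the adult arrays. The groups did not overlap for either gene, and adult replicate 1 was the lowest array for both. RT1-Ba was higher by 1.61 (SE 0.26, 3.05-fold, adjusted p = 0.0249) and RT1-Db1 by 1.54 (SE 0.21, 2.92-fold, adjusted p = 0.0128).

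Cd74 had 8.57, 8.34, 8.01 and 8.06 on the impaired arrays, against 6.05, 6.78, 6.92 and 7.22 on the adult arrays. RT1-Da had 11.39, 11.20, 10.72 and 11.01 on the impaired arrays, against 8.85, 9.77, 9.83 and 10.21 on the adult arrays. Again every impaired array lay above every adult array, and adult replicate 1 was lowest. The rise was 1.50 for Cd74 (SE 0.22, 2.83-fold, adjusted p = 0.0141) and 1.41 for RT1-Da (SE 0.26, 2.66-fold, adjusted p = 0.0472). The adult arrays were the more spread out, with an SD of 0.43 for RT1-Db1, 0.50 for Cd74, 0.58 for RT1-Da and 0.66 for RT1-Ba, against 0.17 to 0.29 on the impaired arrays (n = 4 each).

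Without adult replicate 1 the differences were 1.30 for RT1-Ba (adjusted p = 0.0238), 1.36 for RT1-Db1 (adjusted p = 0.0238) and 1.27 for Cd74 (adjusted p = 0.0238). RT1-Da then differed by 1.14 and no longer passed (adjusted p = 0.0773). Leaving out impaired replicate 1 ended all 4 calls, at 1.54 for RT1-Ba (adjusted p = 0.0903), 1.45 for RT1-Db1 (adjusted p = 0.0602), 1.39 for Cd74 (adjusted p = 0.0688) and 1.31 for RT1-Da (adjusted p = 0.152). With each impaired array left out in turn, RT1-Ba and RT1-Da passed in 0 of 4 cases, Cd74 in 2 and RT1-Db1 in 3. The 2 class II genes of peptide exchange did not pass. The DM alpha chain, named Hla-dma on the array, differed by 0.04 (adjusted p = 0.961), and the DM beta chain, Hla-dmb, by 0.20 (adjusted p = 0.691). Ciita had a probe that was not detected on any of the 8 arrays, as had RT1-DOa, RT1-DOb and RT1-Ha. Rat class II chains are related in sequence, and how far 1 probe reads another chain was not tested.

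Class I genes, whose products display peptides from inside the cell, did not pass. Of 17 tested members of the class I and peptide loading list, 13 lay above 0, against 50.6% of all tested probes. None was called, and the median was 0.09. B2m, the light chain of class I, averaged 13.33 ± 0.10 on the impaired arrays and 13.22 ± 0.11 on the adult arrays (SD, n = 4 each), a difference of 0.12 (SE 0.08, adjusted p = 0.77). Psmb8, a subunit of the immunoproteasome, differed by 0.28 (SE 0.09, adjusted p = 0.354).

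**Figure D2:**
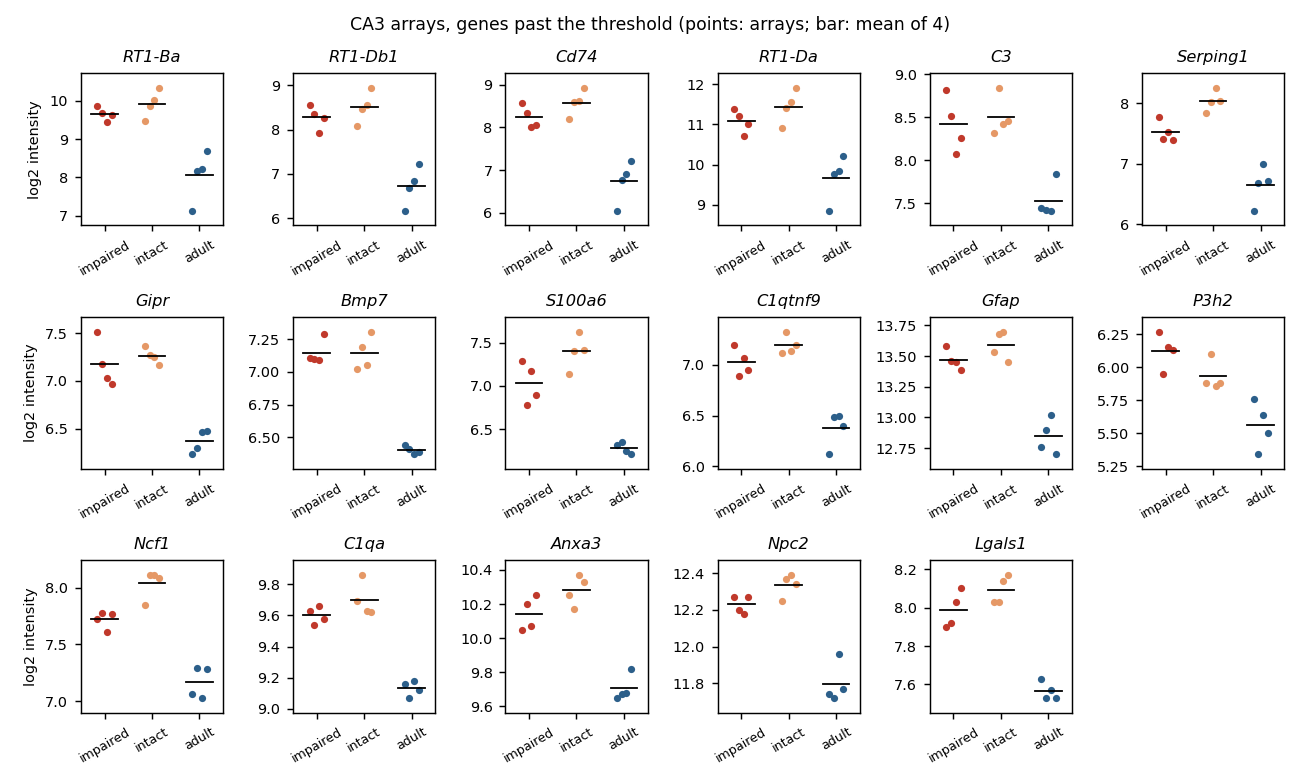
Log2 intensity of each of the 17 genes past the threshold on each CA3 array, with impaired arrays on the left, intact in the middle and adult on the right, and a bar at the mean of 4. In every panel the impaired points lie above the adult points, and the lowest adult point of the 4 class II genes is replicate 1.

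Complement was the second immune group with several calls. Of 15 tested members, 3 rose, against 0.175% of all tested probes, and 14 lay above 0, against 50.6%. As for class II, the list was chosen with earlier results of these data known. The median was 0.34, against 0.002 over all probes. The probe of C3, the protein on which the complement pathways converge, had log2 intensities of 8.82, 8.51, 8.07 and 8.26 on the impaired arrays, against 7.44, 7.42, 7.41 and 7.84 on the adult arrays. It carries a locus name on the array and was identified as C3 through the transcript in its deposited description. Serping1, the C1 inhibitor, had 7.77, 7.40, 7.52 and 7.39 on the impaired arrays, against 6.22, 6.68, 6.99 and 6.72 on the adult arrays. Neither gene's groups overlapped. C3 was 1.85-fold higher (log2 0.89, SE 0.16, adjusted p = 0.0438) and Serping1 1.82-fold (log2 0.87, SE 0.15, adjusted p = 0.0326). Without adult replicate 1 both lost the call, with differences of 0.86 for C3 (adjusted p = 0.133) and 0.72 for Serping1 (adjusted p = 0.0546). Neither passed with any 1 impaired array left out, at 0.75 to 1.00 for C3 (adjusted p from 0.0531 to 0.178) and 0.78 to 0.91 for Serping1 (adjusted p from 0.071 to 0.107).

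C1qa, a chain of the C1q molecule that starts the classical pathway, had 9.63, 9.54, 9.66 and 9.58 on the impaired arrays, against 9.16, 9.07, 9.18 and 9.12 on the adult arrays. Both groups were tight (SD 0.05 each), and the gene was 1.38-fold higher (log2 0.47, SE 0.07, adjusted p = 0.0241). It missed the threshold whichever impaired array was left out, at 0.45 to 0.49 (adjusted p from 0.0521 to 0.0844). The other C1q chains missed the threshold, with differences of 0.37 for C1qc (adjusted p = 0.193) and 0.34 for C1qb (adjusted p = 0.304). C1s, the protease of the C1 complex, differed by 0.40 (adjusted p = 0.266), and Cfb, of the alternative pathway, by 0.41 (adjusted p = 0.376). C4b, cleaved by C1s, averaged 7.49 ± 0.21 on the impaired arrays and 7.05 ± 0.19 on the adult arrays (SD, n = 4 each), a difference of 0.44 (SE 0.17, adjusted p = 0.537). All impaired arrays lay above all adult arrays for 8 of the 15 complement genes, against 3.01% of all tested probes.

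Microglial genes lay mostly above 0, with no call on the identity list. Of its 21 tested members, 20 lay above 0, against 50.6% of all tested probes, and the median was 0.23. All impaired arrays lay above all adult arrays for 10 of the 21, against 3.01% of all tested probes. Slc2a5, the fructose transporter of microglia, had 8.81, 8.72, 8.69 and 8.71 on the impaired arrays, against 8.00, 8.41, 8.12 and 8.37 on the adult arrays. Trem2, a lipid receptor of microglia, had 10.34, 10.04, 10.05 and 9.97 on the impaired arrays, against 9.63, 9.74, 9.71 and 9.61 on the adult arrays. The groups were apart for both genes, yet Slc2a5 (difference 0.50, SE 0.10, adjusted p = 0.0574) and Trem2 (difference 0.43, SE 0.08, adjusted p = 0.0652) narrowly missed the threshold. Tyrobp, the signalling partner of Trem2, differed by 0.23 (adjusted p = 0.354) and Aif1, the antigen of the Iba1 stain, by 0.26 (adjusted p = 0.505). The summed intensity over the 32 listed genes with a probe ran from 17742 to 20740 on the impaired arrays and from 16232 to 17782 on the adult arrays. Of these 32 genes 8 were not detected on any of the 8 arrays, among them Spi1, Irf8 and Ptprc. The part of these marker levels in the class II and complement results was not tested.

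Among genes of activated phagocytes, 1 of 20 tested members rose, against 0.175% of all tested probes, and 19 lay above 0, against 50.6%. Their median was 0.18. Ncf1, the organiser subunit of the phagocyte NADPH oxidase, had 7.72, 7.78, 7.61 and 7.77 on the impaired arrays, against 7.06, 7.29, 7.03 and 7.28 on the adult arrays. It was 1.47-fold higher (log2 0.55, SE 0.09, adjusted p = 0.0249), and did not pass without adult replicate 1 (0.52, adjusted p = 0.0773) or without any 1 impaired array (0.53 to 0.59, adjusted p from 0.0575 to 0.0963). Lgals3, a galectin of phagocytes, differed by 0.64 (adjusted p = 0.212), S100a4 by 0.79 (adjusted p = 0.199) and Spp1, osteopontin, by 0.54 (adjusted p = 0.266), and none of the 3 passed.

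The lysosomal list had 1 call among 41 tested members, against 0.175% of all tested probes called higher. Above 0 lay 36 of the 41, against 50.6%, and the median was 0.13. Npc2, which hands cholesterol over inside the lysosome, had 12.27, 12.20, 12.18 and 12.27 on the impaired arrays, against 11.74, 11.72, 11.96 and 11.77 on the adult arrays. The arrays did not overlap, at a difference of 0.43 (SE 0.07, 1.35-fold, adjusted p = 0.0331). Laptm5, a lysosomal membrane protein of blood and microglial cells, differed by 0.43 (adjusted p = 0.0983), Ctsc, the protease cathepsin C, by 0.35 (adjusted p = 0.229) and Grn, progranulin, by 0.23 (adjusted p = 0.427). Npc2 lost the call without adult replicate 1 (0.41, adjusted p = 0.0951) and without any 1 impaired array (0.42 to 0.45, adjusted p from 0.0854 to 0.115).

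Interferon-response genes lay near the median of all probes. Of 19 tested members, 10 lay above 0, against 50.6% of all tested probes. None was called and the median was 0.004. Ifitm3, a membrane protein induced by interferon, differed by 0.36 (SE 0.11, adjusted p = 0.376) and Irgm, an interferon-induced GTPase, by -0.22 (SE 0.09, adjusted p = 0.545).

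Astrocyte genes split by kind. The 23 tested astrocyte identity genes had a median of -0.02 with 10 above 0 and none called. The 19 tested reactivity genes had a median of 0.31 with 16 above 0 and 3 called. Of all tested probes 50.6% lay above 0 and 0.175% were called higher. The 3 called reactivity genes were Gfap, S100a6 and C3, the last of which is also on the complement list. Gfap had 13.58, 13.46, 13.45 and 13.39 on the impaired arrays, against 12.76, 12.90, 13.02 and 12.70 on the adult arrays. S100a6, a calcium-binding protein, had 7.29, 6.78, 7.17 and 6.89 on the impaired arrays, against 6.32, 6.35, 6.25 and 6.21 on the adult arrays. The spread of S100a6 lay mostly in the impaired group (SD 0.24, against 0.07 in the adult group, n = 4 each), but the groups did not overlap for either gene. Gfap was 1.54-fold higher (log2 0.62, SE 0.09, adjusted p = 0.0141) and S100a6 1.68-fold (log2 0.75, SE 0.12, adjusted p = 0.0249). Without adult replicate 1 the Gfap difference was 0.59 (adjusted p = 0.0425), and that of S100a6 was 0.76 (adjusted p = 0.0641). Gfap did not pass without impaired replicate 1 (0.59, adjusted p = 0.0688), 2 (0.63, adjusted p = 0.0521) or 3 (0.63, adjusted p = 0.0531). S100a6 passed in 1 of 4 cases with an impaired array left out (0.66 to 0.83, adjusted p from 0.0479 to 0.091) and in 0 of 4 with an adult array left out (0.72 to 0.77, adjusted p from 0.0641 to 0.084).

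Other astrocyte genes did not pass. Vim, which forms filaments with Gfap, averaged 10.28 ± 0.33 on the impaired arrays and 9.93 ± 0.18 on the adult arrays (SD, n = 4 each), a difference of 0.35 (SE 0.18, adjusted p = 0.659). Aqp4, the water channel of astrocyte endfeet, differed by 0.07 (SE 0.21, adjusted p = 0.956). The secreted peptide gene Ecrg4 differed by 0.64 (adjusted p = 0.0574), and the small heat shock protein Hspb1 by 0.65 (adjusted p = 0.343). The summed intensity of 25 astrocyte markers ran from 117384 to 121771 on the impaired arrays, within the 112145 to 125488 of the adult arrays.

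Bmp7 had the smallest p of all probes. It encodes a secreted bone morphogenetic protein, which signals through Smad proteins and is known to be made by meninges and choroid plexus. Bmp7 had 7.11, 7.10, 7.09 and 7.29 on the impaired arrays, against 6.44, 6.41, 6.37 and 6.39 on the adult arrays. Both groups were tight (SD 0.09 in the impaired and 0.03 in the adult group, n = 4 each), and the difference was 0.75 (SE 0.08, 1.68-fold, adjusted p = 0.00213). Gipr, the receptor of the gut hormone GIP, had 7.52, 7.18, 7.03 and 6.97 on the impaired arrays, against 6.23, 6.30, 6.46 and 6.47 on the adult arrays. Its difference was 0.81 (SE 0.11, 1.75-fold, adjusted p = 0.0128), and again the groups did not overlap. Bmp7 and Gipr were the only genes of the 17 that passed in all 22 alternative analyses, with adjusted p up to 0.0178 for Bmp7 and 0.0495 for Gipr.

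Markers of meninges and choroid plexus are given beside Bmp7. Of 11 tested meningeal genes, 7 lay above 0, against 50.6% of all tested probes, and none was called, with a median of 0.12. Of 4 tested choroid plexus genes 2 lay above 0 and none was called, with a median of -0.02. Nupr1, a stress-induced nuclear protein on the meningeal list, differed by 0.46 (SE 0.12, adjusted p = 0.229). All its impaired arrays lay above all adult arrays, as for 3.01% of all tested probes. Ogn, the matrix proteoglycan osteoglycin, differed by 0.33 (SE 0.11, adjusted p = 0.441). These 2 had the smallest p of the meningeal list. On the same list Lum (-0.24), Col1a2 (-0.19), Gjb2 (-0.11) and Igf2 (-0.09) lay below 0. Over 24 meningeal genes the summed intensity ran from 9744 to 11803 on the impaired arrays and from 9479 to 10992 on the adult arrays, and 11 of the 24, Col1a1 and Col3a1 among them, were not detected on any of the 8 arrays. Over 18 choroid plexus genes it ran from 5501 to 6731 on the impaired arrays and from 5129 to 6912 on the adult arrays. Folr1, Kl, Otx2 and Clic6, defining genes of the choroid plexus, were among 13 that were not detected on any of the 8. Ttr, transthyretin, the main secretory product of that tissue, had 6.45, 7.44, 7.70 and 6.47 on the impaired arrays, against 8.54, 8.16, 7.55 and 6.43 on the adult arrays. The Ttr groups overlapped (difference -0.66, SE 0.40, adjusted p = 0.729), and without adult replicate 1 the difference was -0.37 (adjusted p = 0.879). Kcnj13, a potassium channel on the choroid plexus list, differed by 0.12 (SE 0.12, adjusted p = 0.86). The part of these tissues in the Bmp7 result was not tested beyond these values.

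C1qtnf9, a secreted protein with a C1q-like domain, had 7.20, 6.89, 7.07 and 6.95 on the impaired arrays, against 6.12, 6.49, 6.50 and 6.40 on the adult arrays. P3h2, a collagen prolyl hydroxylase, had 6.27, 5.95, 6.15 and 6.13 on the impaired arrays, against 5.76, 5.34, 5.64 and 5.50 on the adult arrays. P3h2 is close to the detection limit, and it was not above background on 3 of the 4 adult arrays. The rise was 0.65 for C1qtnf9 (SE 0.10, 1.57-fold, adjusted p = 0.0199) and 0.56 for P3h2 (SE 0.10, 1.48-fold, adjusted p = 0.0438). P3h2 passed in 5 of the 21 alternatives that tested it. With 1 impaired array left out, C1qtnf9 passed in 1 of 4 cases (0.59 to 0.70, adjusted p from 0.0479 to 0.0779) and P3h2 in 0 of 4 (0.52 to 0.62, adjusted p from 0.0653 to 0.163).

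Anxa3, a calcium-dependent phospholipid-binding annexin, had 10.05, 10.20, 10.07 and 10.25 on the impaired arrays, against 9.65, 9.67, 9.68 and 9.82 on the adult arrays. Lgals1, the lectin galectin-1, had 7.90, 7.92, 8.03 and 8.10 on the impaired arrays, against 7.63, 7.53, 7.57 and 7.53 on the adult arrays. Both gaps were narrow and every impaired array was above every adult array. Anxa3 was higher by 0.44 (SE 0.08, 1.35-fold, adjusted p = 0.0438) and Lgals1 by 0.42 (SE 0.07, 1.34-fold, adjusted p = 0.0331). Both lost the call without adult replicate 1, at 0.42 for Anxa3 (adjusted p = 0.121) and 0.44 for Lgals1 (adjusted p = 0.0568). Neither passed with any 1 of the 8 arrays left out, with differences from 0.40 to 0.48 for Anxa3 and from 0.39 to 0.45 for Lgals1.

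The number of calls depended on every array. Leaving out impaired replicate 1, 2, 3 or 4 kept 2, 5, 4 and 5 of the 17 genes past the threshold, and leaving out adult replicate 1, 2, 3 or 4 kept 9, 7, 10 and 9. The 9 that passed without adult replicate 1 were RT1-Ba, RT1-Db1, Cd74, Bmp7, Gipr, C1qtnf9, Gfap, P3h2 and C1qa. No difference of the 17 changed sign in any of the 22 alternatives. With 1 array left out this could not happen, since every impaired array lay above every adult array. With 4 arrays in each group, the number of arrays limits the precision. A fit with 1 array fewer is less precise, so a lost call does not single out the array left out.

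**Figure D3:**
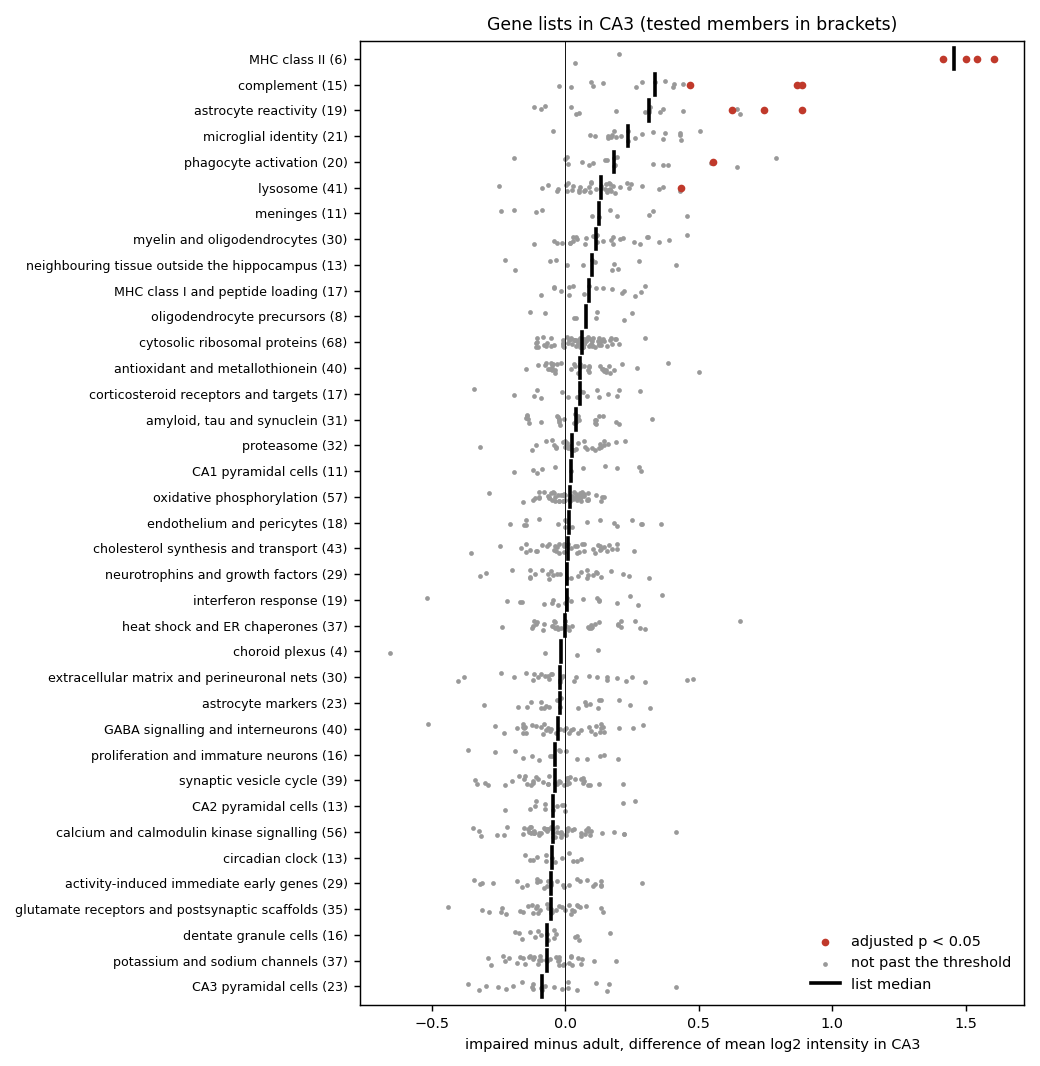
Difference of mean log2 intensity, impaired minus adult, of the tested members of each gene list (number in brackets), with the list median as a bar and genes past the adjusted threshold as large points. Lists with fewer than 4 tested members are not drawn. MHC class II lies far to the right with a median of 1.46, followed by complement at 0.34, and the CA3 pyramidal cell list is lowest at -0.09.

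Genes of neurons had no member past the threshold in either direction. The synaptic vesicle list had 39 tested members and a median of -0.04, the glutamate receptor and scaffold list 35 and -0.06, the potassium and sodium channel list 37 and -0.07, and the GABA and interneuron list 40 and -0.03. These medians stand beside 0.002 for all probes. Above 0 lay 15 of 39 vesicle genes, 10 of 35 receptor genes, 9 of 37 channel genes and 18 of 40 GABA genes, against 50.6% of all probes.

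The lowest p among lower genes belonged to Glra2, a subunit of the glycine receptor. Glra2 had 8.52, 8.46, 8.63 and 8.82 on the impaired arrays, against 9.12, 9.15, 9.11 and 9.12 on the adult arrays. The adult arrays were nearly identical (SD 0.02) and lay above all impaired arrays, and the difference of -0.52 (SE 0.10) missed the threshold narrowly (adjusted p = 0.0505). It passed in 5 of the 22 alternatives, with adjusted p from 0.0286 to 0.0494.

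Gria2, the AMPA receptor subunit that limits calcium entry, had 12.49, 12.67, 12.25 and 12.46 on the impaired arrays, against 13.19, 12.87, 12.77 and 12.80 on the adult arrays. Its difference was -0.44 (SE 0.11, adjusted p = 0.193). Grik2, a kainate receptor subunit, differed by -0.24 (adjusted p = 0.395), Syn1, synapsin I of the vesicle surface, by -0.33 (adjusted p = 0.299), and Slc17a7, the vesicular glutamate transporter, by -0.29 (adjusted p = 0.366). For each of these 4 genes all impaired arrays lay below all adult arrays, and none passed. The same separation held for 3 of 35 receptor genes, 3 of 39 vesicle genes and 2.26% of all tested probes. The 4 had the smallest p of their lists, which favours it. Snap25, of the vesicle fusion complex, differed by -0.17 (adjusted p = 0.697). Gad1, which makes GABA, differed by 0.00 (SE 0.10, adjusted p = 0.998) and Sst, the peptide of a class of interneurons, by 0.13 (SE 0.10, adjusted p = 0.81).

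Of 23 tested CA3 pyramidal cell genes, 7 lay above 0, against 50.6% of all tested probes. Their median was -0.09, with no call. Nectin3 had 7.98, 7.86, 7.48 and 7.99 on the impaired arrays, against 8.12, 8.06, 8.10 and 8.24 on the adult arrays, a difference of -0.30 (SE 0.14, adjusted p = 0.604). Rgs4, which speeds the shut-off of G proteins, had 9.11, 9.37, 9.51 and 9.34 on the impaired arrays, against 9.74, 9.69, 9.60 and 9.60 on the adult arrays, a difference of -0.32 (SE 0.10, adjusted p = 0.354). The impaired arrays were below the adult arrays for both genes, as for 4 of the 23 listed and 2.26% of all tested probes. Prkcd, a protein kinase C isoform on the same list, went the other way, at 0.41 (SE 0.10, adjusted p = 0.215). The summed intensity over 31 CA3 markers ran from 29550 to 31457 on the impaired arrays and from 29396 to 34480 on the adult arrays. Adult replicate 1 had the lowest sum. The other adult arrays, at 33309 to 34480, lay above all impaired arrays.

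Activity-induced genes had a median of -0.05 over 29 tested members, with no call. Above 0 lay 10 of the 29, against 50.6% of all tested probes. Bdnf, the neurotrophin, averaged 8.52 ± 0.20 on the impaired arrays and 8.84 ± 0.18 on the adult arrays (SD, n = 4 each), a difference of -0.32 (SE 0.11, adjusted p = 0.457). Arc, of dendritic protein transport, differed by -0.05 (SE 0.14, adjusted p = 0.95). Nr4a3, an orphan nuclear receptor, differed by -0.31 at its brighter probe (adjusted p = 0.266) and by -0.16 at its other probe (adjusted p = 0.817). Pgrmc1, a haem-binding membrane protein, had 10.37, 10.27, 10.35 and 10.10 on the impaired arrays, against 10.93, 10.52, 10.64 and 10.88 on the adult arrays, a difference of -0.47 (SE 0.12, adjusted p = 0.204). Calb1, a calcium buffer abundant in granule cells, differed by -0.06 (SE 0.31), with an SD of 0.25 on the impaired arrays and 0.78 on the adult arrays. Its direction turned to 0.31 (adjusted p = 0.799) without adult replicate 1.

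Myelin genes lay above 0 in 26 of 30 tested members, against 50.6% of all tested probes. Their median was 0.12 and none passed the threshold. Hapln2, a link protein at the nodes of myelinated axons, had 11.43, 11.44, 11.21 and 11.35 on the impaired arrays, against 10.49, 11.01, 11.13 and 10.98 on the adult arrays, a difference of 0.45 (SE 0.12, adjusted p = 0.219). Mbp, myelin basic protein, had 11.67, 11.56, 11.65 and 11.65 on the impaired arrays, against 10.66, 11.44, 11.60 and 11.27 on the adult arrays, a difference of 0.39 (SE 0.15, adjusted p = 0.541). Adult replicate 1 was the lowest array for both, and without it the difference was 0.32 for Hapln2 (adjusted p = 0.266) and 0.19 for Mbp (adjusted p = 0.678). Summed over 34 myelin genes, the intensity ran from 83905 to 94609 on the impaired arrays and from 67815 to 95195 on the adult arrays.

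The housekeeping lists held no call. Oxidative phosphorylation had 57 tested members and a median of 0.02, the proteasome 32 and 0.03, cytosolic ribosomal proteins 68 and 0.06, chaperones 37 and 0.00, and antioxidant and metallothionein genes 40 and 0.05. Of the ribosomal genes, 51 of 68 lay above 0, against 50.6% of all tested probes, and 6 had all impaired arrays above all adult arrays, against 3.01%. Mgst1, a microsomal glutathione transferase, was nearest the threshold with a difference of 0.38 (SE 0.08, adjusted p = 0.101). Rpl36, a ribosomal protein, differed by 0.30 (SE 0.08, adjusted p = 0.249).

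Other lists of fixed genes likewise held no call. Their medians were 0.00 for 29 growth factor genes, -0.04 for 16 genes of proliferation and immature neurons, 0.01 for 43 cholesterol genes, 0.05 for 17 corticosteroid genes, -0.05 for 13 clock genes, 0.04 for 31 genes of amyloid, tau and synuclein, and -0.02 for 30 matrix genes. Nr3c2, the mineralocorticoid receptor, differed by -0.19 (SE 0.08, adjusted p = 0.57). Cyp46a1, which converts brain cholesterol to 24-hydroxycholesterol, differed by -0.35 (SE 0.11, adjusted p = 0.351). Col6a3, a collagen chain, differed by 0.48 (SE 0.13, adjusted p = 0.249).

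**Figure D4:**
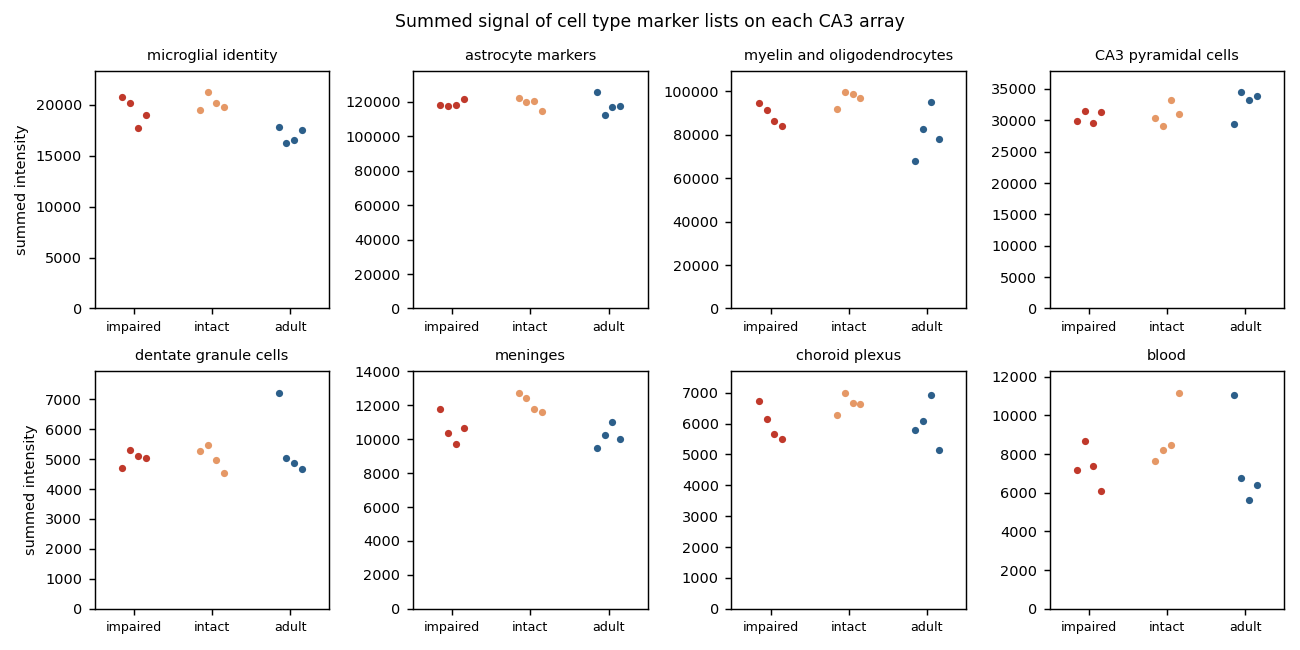
Summed linear intensity of 8 cell type marker lists on each CA3 array, with impaired arrays on the left, intact in the middle and adult on the right. The dentate granule cell and blood panels each show 1 adult point, replicate 1, above the other adult points, and the microglial points of 3 impaired arrays lie above all adult points.

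A few probes were detected in 1 group only. Zfp455, a zinc finger gene, was detected on 0 of 4 impaired and 4 of 4 adult arrays, with 5.59, 5.61, 5.42 and 5.69 on the impaired arrays, against 6.20, 5.96, 6.00 and 5.98 on the adult arrays. It was at least 1.28-fold lower in the impaired group, a bound against the dimmest detected signal of each impaired array, and did not pass (adjusted p = 0.0574). Ebag9 was at least 1.28-fold lower on the same pattern (means 5.43 in impaired and 6.04 in adult samples, adjusted p = 0.193), and Zfp763 at least 1.18-fold lower (means 5.46 in impaired and 5.92 in adult samples, adjusted p = 0.215). Aasdhppt, Adgrg6 and Cdkn2aip were detected on all 4 impaired and no adult arrays. They were at least 1.11-fold, 1.07-fold and 1.08-fold higher, with adjusted p of 0.467 for Aasdhppt, 0.518 for Adgrg6 and 0.703 for Cdkn2aip. The groups overlapped for Adgrg6 and Cdkn2aip. All these bounds use group means and leave out the spread between arrays.

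The impaired arrays were then set against the intact arrays of the same age, to ask whether the label divided the aged samples. No probe of 9701 passed (0.0%), by limma, in the main analysis or in any of the 21 alternatives that allowed the comparison, and the lowest adjusted p was 0.964. At an unadjusted p under 0.05 there were 476 of the 9701 probes, no more than that cut-off gives when no probe differs. The 5 named genes of smallest p were Dgcr8 (difference 0.38, SE 0.09), Mcm4 (0.29, SE 0.07), Spsb2 (-0.38, SE 0.10), Lap3 (-0.35, SE 0.09) and Rfxank (-0.27, SE 0.07), each with an adjusted p of 0.964. Rfxank encodes a subunit of the RFX complex. A missed threshold does not show that the groups are alike.

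For 15 of the 17 genes the impaired mean lay below the intact mean, though none of these differences passed. The share of all tested probes with a lower impaired mean is not given here, so this count is a description. Serping1 differed by -0.51 (adjusted p = 0.964), S100a6 by -0.37 (adjusted p = 0.964), RT1-Da by -0.36 and Cd74 by -0.34 (adjusted p = 0.979 each), and Ncf1 by -0.32 (adjusted p = 0.964). The exceptions were Bmp7 at 0.00 (adjusted p = 0.997) and P3h2 at 0.20 (adjusted p = 0.977).

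The intact arrays were also compared with the same adult arrays, so the values can only be placed side by side. In that comparison 97 probes were higher (1.0%) and 11 lower (0.113%). For RT1-Ba the difference from adult was 1.61 in impaired and 1.88 in intact samples, and for Cd74 1.50 in impaired and 1.84 in intact samples. Serping1 stood at 0.87 in impaired and 1.38 in intact samples, Gfap at 0.62 in impaired and 0.74 in intact samples, and Bmp7 at 0.75 in impaired and 0.74 in intact samples. P3h2, at 0.56 in impaired and 0.37 in intact samples, was the only one of the 17 that did not pass in the intact comparison (adjusted p = 0.109). The difference between the 2 aged groups is the test given above, which no probe passed.

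**Figure D5:**
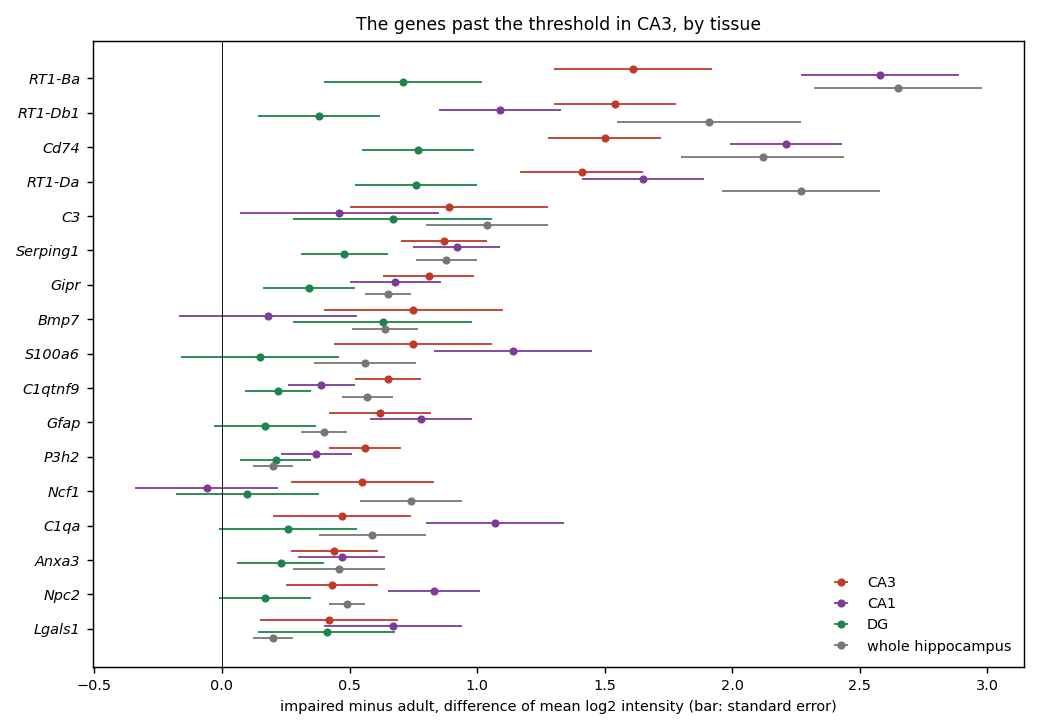
Difference of mean log2 intensity, impaired minus adult, for the 17 genes in CA3, CA1, DG and whole hippocampus, with standard errors as bars, which for the 3 regions come from 1 fit of 36 arrays and for whole hippocampus from its own fit. Points lie right of 0 in every tissue except for Ncf1 in CA1, at -0.06 with all arrays and 0.46 without CA1 adult replicate 4. Each CA3 point lies right of the DG point for genes that were chosen by their CA3 difference.

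The same contrast was available in CA1 and DG, with 4 impaired and 4 adult arrays each on a slide of its own, and the difference between regions was tested directly. No probe passed between CA3 and CA1 (0.0%, 263 at an unadjusted p under 0.05, lowest adjusted p 0.7) or between CA3 and DG (0.0%, 56 at an unadjusted p under 0.05, lowest adjusted p 1.0), by limma on 36 arrays. Both counts are fewer than a cut-off of 0.05 gives when no probe differs, so they are no measure of how alike the regions are. The SE of the CA3 difference was wider in this fit than in the CA3 fit for Bmp7 (0.35 against 0.08) and C1qa (0.27 against 0.07). It was 0.22 in both fits for Cd74, and narrower here for RT1-Da (0.24 against 0.26). A missed threshold does not show that the regions are alike. CA1 adult replicate 4 had only 22.22% of probes detected, against 41.25% to 45.38% on the other CA1 adult arrays. It is among the 36 arrays of this fit, so its spread enters the SE of both region differences. CA1 values include it unless stated otherwise. RT1-Db1 was among the 5 named genes of smallest p between CA3 and DG, with a difference of 1.54 in CA3 and 0.38 in DG (1.16 between them, SE 0.34, unadjusted p = 0.00174, adjusted p = 1). The other 4 were Gpr75 (-0.59 between them, SE 0.15), Cers4 (0.58, SE 0.20), Ell (-0.42, SE 0.16) and Map7d2 (-0.39, SE 0.15), all with an adjusted p of 1. Against CA1 the smallest p belonged to Slc12a2, a chloride cotransporter, at -0.31 in CA3 and 1.45 in CA1 (-1.75 between them, SE 0.41, adjusted p = 0.7), followed by Srd5a2, Cryzl1, Elavl1 and Sprr1a at 0.99, 0.62, -0.97 and 0.64.

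The 17 genes were chosen by their CA3 difference, which favours a wider value there, so their values by region are a description. The difference of all 17 was wider in CA3 than in DG, by 0.02 for Lgals1 to 1.16 for RT1-Db1, and wider in CA3 than in CA1 for 7 of the 17 (10 without CA1 adult replicate 4). None passed the adjusted threshold for the difference between regions. Standard errors in these side-by-side values come from the fit of 36 arrays. Cd74 differed by 1.50 (SE 0.22) in CA3, 2.21 (SE 0.22) in CA1 and 0.77 (SE 0.22) in DG. RT1-Ba differed by 1.61 (SE 0.31) in CA3, 2.58 (SE 0.31) in CA1 and 0.71 (SE 0.31) in DG. For Cd74 and RT1-Ba the value was highest in CA1 and lowest in DG. RT1-Da differed by 1.41 in CA3, 1.65 in CA1 and 0.76 in DG (SE 0.24 each), and RT1-Db1 by 1.54 in CA3, 1.09 in CA1 (1.39 without CA1 adult replicate 4) and 0.38 in DG (SE 0.24 each). Gfap differed by 0.62 (SE 0.20) in CA3, 0.78 (SE 0.20) in CA1 and 0.17 (SE 0.20) in DG, and its CA1 value was 0.43 without CA1 adult replicate 4, so that CA3 minus CA1 turned from -0.16 to 0.19. Bmp7 differed by 0.75 (SE 0.35) in CA3, 0.18 (SE 0.35) in CA1 and 0.63 (SE 0.35) in DG, and its CA1 value was 0.86 without that array. The CA1 value of C3 was 0.46 with that array and 1.12 without it, and that of C1qa 1.07 with it and 0.54 without it.

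Whole hippocampus gave the comparison on arrays that the CA3 rule did not use, with 9 impaired and 6 adult arrays over 2 slides. There 25 of 10020 probes were higher (0.25%) and 3 lower (0.0299%). All 17 genes lay above 0 and 10 of them passed, namely RT1-Ba, RT1-Db1, Cd74, RT1-Da, Serping1, Gipr, Bmp7, C1qtnf9, Gfap and Npc2. RT1-Ba was higher by 2.65 (SE 0.33, adjusted p = 9.86e-05), with 2.30 on the first slide and 2.95 on the second. Bmp7 was higher by 0.64 (SE 0.13, adjusted p = 0.0172), with 0.91 on the first slide and 0.39 on the second. Gipr was higher by 0.65 (SE 0.09, adjusted p = 0.000383), with 0.85 on the first slide and 0.48 on the second. Each of these kept its direction within both slides.

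The 7 genes that did not pass in whole hippocampus were C3 (difference 1.04, SE 0.24, adjusted p = 0.0602), Ncf1 (0.74, SE 0.20, adjusted p = 0.233), C1qa (0.59, SE 0.21, adjusted p = 0.704), S100a6 (0.56, SE 0.20, adjusted p = 0.694), Anxa3 (0.46, SE 0.18, adjusted p = 0.896), Lgals1 (0.20, SE 0.08, adjusted p = 0.972) and P3h2 (0.20, SE 0.08, adjusted p = 0.942). The labels did not say whether whole hippocampus and CA3 samples came from different animals.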

How the data were processed

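RNA from 8 CA3 samples, with 52 further arrays of the series for normalisation and comparison, was read from the deposited non-normalised table. Per the file headers, every probe has on every array a linear intensity (the mean signal of its beads) and, as a second deposited value, its detection p-value. The authors' processed intensity, a linear function of the raw signal within each array (largest residual 0.021) whose scaling is not given in the sources used here, served as an alternative, and its median per CA3 array ran from 15.86 to 20.54. Per the labels' protocols, RNA was extracted with Trizol, cleaned on columns and made into biotinylated cRNA.

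Raw signals of all 60 arrays went through neqc of limma 3.58.1 in R 4.3.3 (background correction with negative controls that the function infers from detection p-values, an offset of 16, quantile normalisation, log2). The offset and background pull the differences of dim probes towards 0. The 12 CA3 arrays were fitted with 3 groups (lmFit, eBayes, two-sided, Benjamini-Hochberg, threshold 0.05). Region differences used 1 fit of 36 arrays, and whole hippocampus had slide as a term. The script was tested on simulated data. Alternatives changed 1 step at a time. Median raw signal ran from 89.0 to 108.3 on the 8 arrays, and their number limits the precision.

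Deposited symbols were updated through RefSeq tables: 10125 probes were current, 5050 updated by synonym, 1699 by gene number, 136 by accession, 5396 were kept and 117 had none. The brightest probe stood for a gene. The 38 lists held 1380 genes, of which 914 were tested, and some share genes. Named were the called genes with a symbol (at most 15 each way), up to 5 called members of a list, the 2 of smallest p where a list had none, a set of 31 genes (Cd68 was not tested and another is not reported here), and the 5 of smallest p in the other contrasts. Lgals1, the list members named beyond this rule, the 6 genes detected in 1 group only and the array names Hla-dma and Hla-dmb were chosen after their values were seen. Members and lists were chosen with earlier results of these data known. Python 3.11.15 served for tables (pandas 2.3.3 with numpy 2.4.6) and plots (matplotlib 3.10.9).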

Additional observations from a re-analysis of the deposited data

Results flagged for a closer look

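Among 119 named genes, tested in the impaired and in the adult group of CA3, 13 of the 238 groups of 4 arrays held 1 array far from the others, with a gap to the nearest that made up most of the group's range. Chance flags about 1 in 20 such groups.

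Among genes past the threshold, impaired replicate 4 had a log2 intensity of 7.29 for Bmp7, against 7.09 to 7.11 on the other impaired arrays. Adult replicate 4 had 7.84 for C3, against 7.41 to 7.44 on the other adult arrays, and 9.82 for Anxa3, against 9.65 to 9.68. Of genes that did not pass, adult replicate 1 had 12.53 for the haemoglobin gene Hba-a2, against 11.37 to 11.56 on the other adult arrays, and 6.20 for Zfp455, against 5.96 to 6.00.

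The other such arrays also belonged to genes that did not pass. On the impaired side, replicate 1 had 9.37 for Mgst1 and 6.33 for Elavl1, replicate 3 had 7.97 for Psmd9 and 10.23 for Sst, and replicate 4 had 10.68 for Map7d2. On the adult side, replicate 3 had 10.39 for Cldn5, replicate 2 had 9.61 for C1qb and replicate 1 had 8.52 for Sprr1a.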

How the results depend on the processing

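The 17 calls of impaired minus adult became 6 with the 8 arrays fitted alone, 11 with the processed values, 9 with median scaling, and 2 to 16 when 1 CA3 array was left out. Between 2 and 17 of the original genes were kept, and Bmp7 and Gipr were past the threshold in all 22 alternatives. Fitting the replicate number as a block gave 7 calls, and the numbers do not pair the samples: the 4 correlations of same-numbered deviations were 0.282, 0.004, 0.216 and -0.099. Intact minus adult had 41 calls with median scaling, against 108, and ran from 54 to 124 with an array left out. CA3 minus DG had 1 call, LOC688464 (0.30 in CA3, 1.48 in DG, adjusted p = 0.0159, chosen after its value was seen), when these 2 regions were fitted alone, and whole hippocampus had 18 calls of 28 with no detection filter. The cause was not tested. Impaired minus intact could not be fitted with the 8 arrays alone. A replicate block in whole hippocampus, an alternative added after seeing the data, gave 38 calls, and impaired replicates 7 to 9 have no adult partner in it. Whether the numbers pair those samples was not tested. Of 2607 values of named genes under alternatives, 147 lost the threshold, 12 gained it, 30 uncalled ones changed sign and no called one did. With 1 array left out a called gene could not change sign, since its groups did not overlap. Of 38 list medians, 20 kept 1 sign, among them class II (1.14 to 1.63), complement (0.28 to 0.39) and microglial identity (0.17 to 0.30). The median of all probes was 0.002 and lay between -0.018 and 0.003 under the other scalings. Dim probes near background limit what P3h2 and Zfp455 can show.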

Other observations

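Some genes outside the lists described above had the smallest p among lower probes, chosen after their values were seen. Fam220a differed by -0.44 (SE 0.09, adjusted p = 0.0963), Pcgf6, a Polycomb group RING finger protein, by -0.30 (SE 0.07, adjusted p = 0.144), Zic2, a zinc finger transcription factor, by -0.44 (SE 0.10, adjusted p = 0.149) and Dgkb, a diacylglycerol kinase, by -0.30 (SE 0.07, adjusted p = 0.156). For all 4 the impaired arrays lay below the adult arrays, as for 2.26% of all tested probes, and the choice by p favours this. Fam220a averaged 8.27 ± 0.12 on the impaired arrays and 8.71 ± 0.17 on the adult arrays, and Pcgf6 averaged 8.58 ± 0.06 on the impaired arrays and 8.88 ± 0.06 on the adult arrays (SD, n = 4 each).

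Of the haemoglobin genes, Hbb differed by 0.03 (SE 0.18, adjusted p = 0.982) and Hba-a2 by 0.01 (SE 0.22, adjusted p = 0.997). Without adult replicate 1, the brightest of the 8 arrays for both, the differences were 0.20 for Hbb (adjusted p = 0.815) and 0.27 for Hba-a2 (adjusted p = 0.721).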
